A study of Caenorhabditis elegans with 32 samples.

Results

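The C-type lectin genes of Caenorhabditis elegans were described by the 22G RNA counted against them in 32 small RNA libraries of whole worms. Members were all protein-coding genes whose name in the WBcel235 annotation begins with clec-. There were 240 such genes among the 46932 genes of the deposited 22G RNA table. The worms were hrde-1 mutants or wild type (WT). Each genotype was sampled in 4 generations, the parents (P0) and their descendants (F1 to F3), and every generation under a hypoxia and a normoxia label. This gave 16 groups of 2 libraries. The allele of hrde-1 is not named in the labels. According to the labels' protocols, the exposure lasted 16 h, with larvae at the L4 stage kept at 20 °C and 0.1% oxygen, and ended with a return to about 20% oxygen. The hypoxia label is carried by all 4 generations of both genotypes, and the labels do not state which generations were themselves exposed. No transgene or driver is named for any group.

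C-type lectin genes encode proteins with a C-type lectin domain, a fold that in many animal proteins binds carbohydrates in a calcium-dependent way. In C. elegans they form a large family of mostly secreted or membrane proteins, many are expressed in the intestine, and many change in mRNA level during infection. 22G RNAs are small antisense RNAs that begin with a guanosine and are made by RNA-dependent RNA polymerases on a transcript. HRDE-1 is a nuclear Argonaute of the germline that binds 22G RNA and is needed for inherited silencing. A 22G count is therefore a count of small RNA against a gene and is not a measure of that gene's mRNA. The libraries came from whole worms, so fewer germline cells and less 22G RNA per cell cannot be told apart. Neither the genotype nor the tissue could be checked from these counts, which do not measure mRNA of hrde-1 or of marker genes.

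The 22G libraries held 438436 to 2578063 counts each. In the P0 WT normoxia libraries 22G RNA made up only 9.27% and 6.15% of the counts of the 4 deposited classes (22G RNA, microRNA, piRNA and snoRNA). The second F2 hrde-1 normoxia library was also shallow, with 473558 22G counts, 14.9% of the 4 classes, and 19 C-type lectin genes with a count. The F2 WT normoxia columns stood apart. In the 22G table, 3 times each F2 WT normoxia value minus the values of the F1 and F3 WT normoxia columns of the same number gave a whole number of at least 0 for all 46932 genes, within 1e-06. Each of these columns therefore equals the mean of 3 whole-number columns, of which the F1 and F3 WT normoxia columns are a pair, and it is not an independent library. The third column implied by this arithmetic, called the remainder here, had totals of 1033920 and 1708872. Values are given as deposited. For the comparisons that use these columns, the count of called genes is also given without them, where that fit could be made, or with the remainder in their place.

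22G RNA against C-type lectin genes was sparse and was held by few genes. Of the 240 genes, 176 had a count in at least 1 library, 64 had none, and 7 had counts in all 32 libraries. Levels are given as CPM (counts scaled to a library size of 1e6), scaled with the effective library sizes of the fit over all libraries, and levels of different genes are compared only per kilobase (kb) of exon. The median level was 0.159 CPM per kb over the 240 genes, against 0.938 CPM per kb over the 19981 protein-coding genes of the table. At least 10 CPM per kb was reached by 12 of the 240 genes (5%), and by 27.8% of all protein-coding genes. The summed count over the family and all libraries was 39360.7, of which 22.7% lay on 1 gene, 47.1% on 3 genes and 76.0% on 10 genes. In all, 183 of the 240 genes had fewer than 50 counts.

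**Figure D1:**
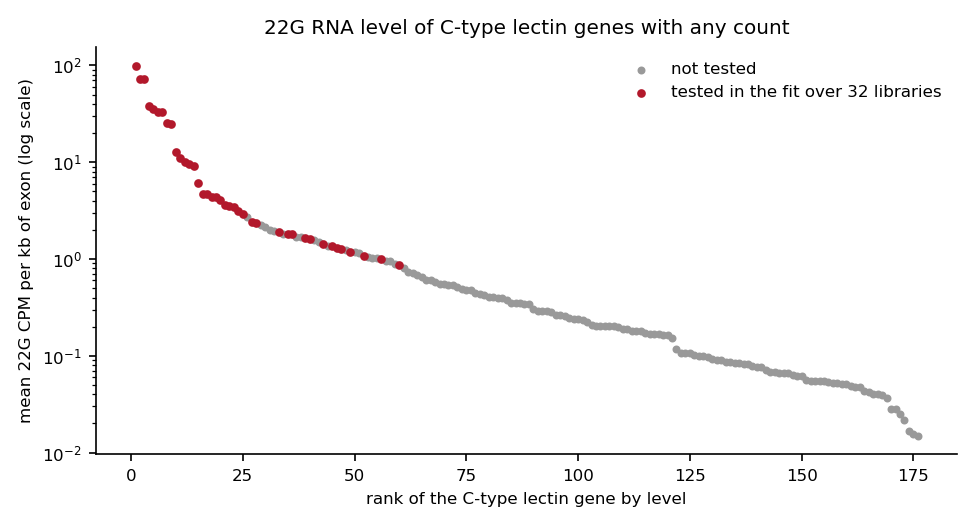
Mean 22G level of the 176 C-type lectin genes with any count, in CPM per kb of exon on a log axis, against their rank. Red points are the 40 genes that passed the count filter of the fit over 32 libraries, and levels run from 99.7 CPM per kb down to genes seen in a few reads.

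The genes with the highest level per kb of exon were clec-238 (99.7 CPM per kb), clec-12 (72.4) and clec-140 (72.1), followed by clec-87 (38.5), clec-119 (35.5), clec-157 (33.2) and clec-90 (33.1). The gene clec-238 spans chromosome V from 16951804 to 16953629, clec-12 lies on chromosome I, and clec-140 spans chromosome II from 4673060 to 4676285. The positions of clec-140 are shared with hmg-11 and T05A7.3 on the same strand, and those of clec-90 with glo-2, so that their reads cannot be told apart. In all, 52 of the 240 genes overlap another gene. The name clec-209 is carried by a pair of genes, WBGene00018910 at chromosome V from 2459637 to 2460893 and WBGene00021224 at chromosome V from 2351676 to 2352932. Both have 891 bases of exon, and their levels were 25.3 and 25.1 CPM per kb. Near-identical copies can share reads, so these values may be a split of common reads and are not 2 independent measurements. The tenth gene, clec-108, had 12.8 CPM per kb.

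The counts were also set against the genes' grouping in the genome. With neighbours joined when less than 20 kb apart, 76 genes were single and held 57.2% of the family's counts, 76 genes lay in groups of 2 to 3 and held 34.8%, and 88 genes lay in groups of 4 or more and held 7.96%. Without clec-140, which is single and overlaps other genes, these shares were 44.6% for single genes, 45.1% for groups of 2 to 3 and 10.3% for larger groups. The largest group had 13 genes, among them clec-22, clec-24, clec-25, clec-31 and clec-40, within 30.7 kb of chromosome V from 16839121 to 16869840. It had 75 counts in all libraries together, and none of its genes passed the filter. A group of 12 genes on chromosome IV, from 3922165 to 4014235, had 476 counts, and 4 of its genes passed. By chromosome, II held 40.4% of the counts with 48 genes, I held 25.2% with 36 genes, and V held 24.1% with 86 genes.

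The summed C-type lectin share of all 22G counts was lower in every hrde-1 library than in every WT library. Under the hypoxia label it ranged from 0.0569% to 0.0672% (median 0.0635%) in hrde-1 worms and from 0.0879% to 0.139% (median 0.0983%) in WT, with 8 libraries each. Under the normoxia label it ranged from 0.0455% to 0.0654% (median 0.0533%) in hrde-1 worms and from 0.106% to 0.135% (median 0.116%) in WT, again with 8 libraries each. These shares are sums over few genes and are given with no test. Without clec-238, clec-12 and clec-140, the shares were 0.0347% to 0.0456% in hrde-1 worms and 0.0332% to 0.0648% in WT under the hypoxia label, so that the genotypes overlapped. Under the normoxia label they were 0.0311% to 0.0471% in hrde-1 worms and 0.0515% to 0.0689% in WT, with no overlap. As a share of all 4 classes the genotypes overlapped under both labels, with 0.0168% to 0.0305% in hrde-1 worms and 0.0274% to 0.0587% in WT under hypoxia, and 0.00719% to 0.0240% in hrde-1 worms and 0.00828% to 0.0432% in WT under normoxia. On this scale the P0 WT normoxia libraries were the lowest of the WT libraries under the normoxia label, at 0.0116% and 0.00828%. The F2 WT normoxia columns, at 0.110% and 0.113% of 22G counts, lay inside the range of the other WT normoxia libraries.

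**Figure D2:**
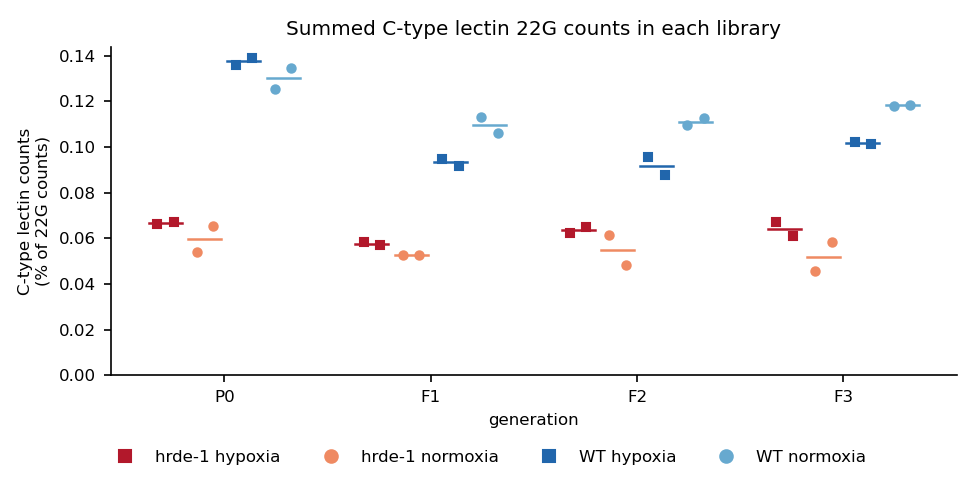
Summed C-type lectin counts as a percentage of all 22G counts in each of 32 libraries, by generation, with a bar at the mean of the 2 libraries of a group. The hrde-1 libraries lie between 0.0455% and 0.0672%, below all WT libraries (0.0879% to 0.139%).

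hrde-1 was compared with WT over the 4 generations, separately under each oxygen label, to ask which C-type lectin genes carry 22G RNA that depends on the genotype. 22G RNA against clec-238, clec-12, both clec-209 copies and clec-169 was lower in hrde-1 worms under both labels, with log2 fold changes of -3.32 to -6.27. 22G RNA against clec-142, clec-157 and clec-53 was higher in hrde-1 worms under both. Counts were tested with edgeR's quasi-likelihood test, with the generation as a term and Benjamini-Hochberg adjustment over all genes tested, at a threshold of 0.05. Under the normoxia label 31 of the 240 genes passed the count filter, and 15 were called, 3 higher and 12 lower in hrde-1 worms. The background over all 9279 genes tested was 28.0% called, 11.7% higher and 16.3% lower. The median log2 fold change was -1.50 over the 31 genes and -0.18 over all genes. Under the hypoxia label 33 genes passed the filter, and 11 were called, 4 higher and 7 lower. The background there was 38.1% called, 18% higher and 20.1% lower, and the medians were -0.11 over the 33 genes and -0.02 over all genes. Of the 12 lower genes under normoxia, 9 were also tested under hypoxia. In all, 27 genes were tested under both labels. Of these, 7 were lower in both (7 of the 9 lower under normoxia and 7 of 7 lower under hypoxia) and 3 were higher in both (3 of 3 under normoxia and 3 of 3 under hypoxia). None was called in opposite directions.

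The lowest p among these genes under hypoxia was at clec-238, which also had the highest level per kb. Under the normoxia label clec-238 had 23.1 and 30.9 CPM at P0, 21.3 and 18.1 at F1, 10.9 and 9.16 at F2, and 0.623 and 7.96 at F3 in hrde-1 worms. In WT under normoxia the 8 libraries lay between 178 and 243 CPM, with a median of 192. The genotypes did not overlap, and the log2 fold change was -3.91 ± 0.33 (SE, 8 libraries each, edgeR adjusted p = 1.97e-08). Under the hypoxia label clec-238 had 24.6 and 37.1 CPM at P0, 19.5 and 21.6 at F1, 9.34 and 31.8 at F2, and 10.5 and 3.49 at F3 in hrde-1 worms, against 159 to 230 CPM (median 199) in WT. The change was -3.32 ± 0.25 on the log2 scale (SE, 8 libraries each, edgeR adjusted p = 1.39e-09). Under normoxia the ratio of the hrde-1 mean to the WT mean was 0.128 at P0, 0.0915 at F1, 0.0514 at F2 and 0.0237 at F3 for this gene.

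For clec-12, hrde-1 worms under normoxia had 26.0 and 26.6 CPM at P0, 12.6 and 15.5 at F1, 1.45 and 16.0 at F2, and 1.87 and 54.6 at F3, while the 8 WT libraries lay between 139 and 269 CPM (median 185). All hrde-1 libraries were below all WT libraries, including the F3 library at 54.6 CPM, which was the highest hrde-1 value. Under hypoxia clec-12 ranged from 0.703 to 24.2 CPM (median 12.3) in hrde-1 worms and from 113 to 210 CPM (median 150) in WT. The log2 fold changes were -3.42 ± 0.46 under normoxia (edgeR adjusted p = 1.67e-05) and -3.77 ± 0.33 under hypoxia (edgeR adjusted p = 7.22e-08).

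At the clec-209 copies almost no 22G RNA was counted in hrde-1 worms. The copy WBGene00018910 had a median of 0 CPM and a highest value of 2.31 CPM in hrde-1 worms under normoxia, with no count in 5 of 8 libraries. In WT under normoxia it had 49.1 to 64.6 CPM (median 56.1). The summed counts were 9 in hrde-1 worms and 589 in WT, and the log2 fold change was -6.27 ± 0.51 (edgeR adjusted p = 1.04e-08). Under hypoxia it had 0 to 2.89 CPM (median 1.30) in hrde-1 worms and 24.4 to 49.1 CPM (median 30.7) in WT, a log2 fold change of -4.59 ± 0.42 (edgeR adjusted p = 1.04e-08). The copy WBGene00021224 changed by -5.47 ± 0.57 under normoxia and by -4.07 ± 0.46 under hypoxia. The neighbours of the first copy, irld-35 and F56A4.10, had 31 and 0 counts in all libraries and were not tested.

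For clec-169 no count was found in any of the 8 hrde-1 libraries under normoxia, while the 8 WT libraries held 68 counts and lay between 1.87 and 8.66 CPM. Against a floor of 3 counts over the group, clec-169 was at least 23.7-fold lower in hrde-1 worms (edgeR adjusted p = 5.93e-04). Under hypoxia 1 count was found in hrde-1 worms and 99 in WT, a ratio of 0.0117 with a 95% counting interval of 2.92e-04 to 0.0665 (edgeR adjusted p = 4.85e-05). The intervals and floors cover counting error only. Its neighbours clec-168 and F38A1.13 had 2 and 1 counts in all libraries, too few to test.

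The genes clec-125 and clec-166 were also lower under both labels. clec-125 had 0 to 27.5 CPM (median 4.40) in hrde-1 worms and 15.3 to 42.5 CPM (median 27.0) in WT under normoxia, a log2 fold change of -2.67 ± 0.69 (edgeR adjusted p = 0.00616) with overlapping groups. Under hypoxia clec-125 changed by -1.96 ± 0.44 (edgeR adjusted p = 0.00153). clec-166 changed by -3.07 ± 1.04 under normoxia (edgeR adjusted p = 0.0337), with 0 to 24.4 CPM (median 1.08) in hrde-1 worms and 3.75 to 43.6 CPM (median 12) in WT. Its mean was lower in hrde-1 worms at P0, F1 and F2, but at F3 it was higher, 16.9 CPM against 4.55 CPM in WT. The log2 fold change was -4.67 without the F3 libraries (edgeR adjusted p = 7.97e-07) and -2.68 without the P0 libraries (edgeR adjusted p = 0.243). With 1 of the 16 libraries left out at a time, clec-166 passed in 6 of 16 fits under normoxia. Under hypoxia it changed by -2.80 ± 0.80 (edgeR adjusted p = 0.00794) and passed in all 16 such fits.

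A further 5 genes were called lower under normoxia, with at most 10.7 CPM in any WT normoxia library. They were clec-84 (-3.35 ± 0.91), clec-204 (-2.96 ± 0.80), clec-29 (-2.65 ± 0.86), clec-150 (-2.49 ± 0.73) and clec-4 (-2.21 ± 0.77). For clec-4 the 8 libraries lay between 0 and 4.36 CPM in hrde-1 worms and between 4.66 and 6.67 CPM in WT, and it passed in 2 of 16 fits with 1 library left out (edgeR adjusted p = 0.0391 with all libraries). clec-29 passed in 11 of 16 such fits. clec-150 had an adjusted p of 0.0143, and of 0.0516 without the second F1 WT normoxia library. clec-29, clec-150 and clec-4 did not pass the count filter under hypoxia and were not tested there. Under hypoxia clec-84 had a log2 fold change of -0.65 ± 0.84 (edgeR adjusted p = 0.583) and clec-204 of -1.23 ± 0.86 (edgeR adjusted p = 0.281). Whether the genotype difference of these genes differs between the labels was not tested. Without the F2 WT normoxia columns only clec-150 of these 5 passed.

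22G RNA against 3 genes was higher in hrde-1 worms under both labels. clec-142 had 6.37 to 34.5 CPM (median 20.3) in hrde-1 worms and 0 to 6.23 CPM (median 1.27) in WT under normoxia, with no overlap, and the log2 fold change was 3.81 ± 0.77 (edgeR adjusted p = 7.96e-04). Under hypoxia it had 1.41 to 33.7 CPM in hrde-1 worms and 0 to 3.13 CPM in WT, a log2 fold change of 3.40 ± 0.59 (edgeR adjusted p = 7.71e-05). clec-157 under hypoxia had 26.1 and 37.7 CPM at P0, 64.3 and 53.3 at F1, 64.0 and 88.6 at F2, and 70.3 and 44.2 at F3 in hrde-1 worms, against 1.66 to 14.2 CPM (median 2.98) in WT. It was higher by 3.68 ± 0.33 on the log2 scale (edgeR adjusted p = 6.80e-09). Under normoxia clec-157 had 0 to 71 CPM (median 35.9) in hrde-1 worms and 1.56 to 15.2 CPM (median 6.46) in WT, a log2 fold change of 2.12 ± 0.63 (edgeR adjusted p = 0.0156). The value of 0 was the second F3 hrde-1 normoxia library, while the first had 71 CPM, and without that first library the adjusted p was 0.0971.

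clec-53 had 2.88 to 12 CPM (median 7.79) in hrde-1 worms and 0 to 0.837 CPM in WT under hypoxia. The summed counts were 86 in hrde-1 worms and 3 in WT, a ratio of 33.1 with a 95% counting interval of 10.9 to 164 (edgeR adjusted p = 4.87e-05). Under normoxia clec-53 changed by 3.18 ± 0.88 on the log2 scale (edgeR adjusted p = 0.0101). The gene clec-205 was higher under hypoxia, with 0 to 9.14 CPM (median 4.33) in hrde-1 worms and 0 to 1.87 CPM (median 0.563) in WT, a log2 fold change of 3.01 ± 0.82 (edgeR adjusted p = 0.00603). It did not pass the count filter under normoxia.

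**Figure D3:**
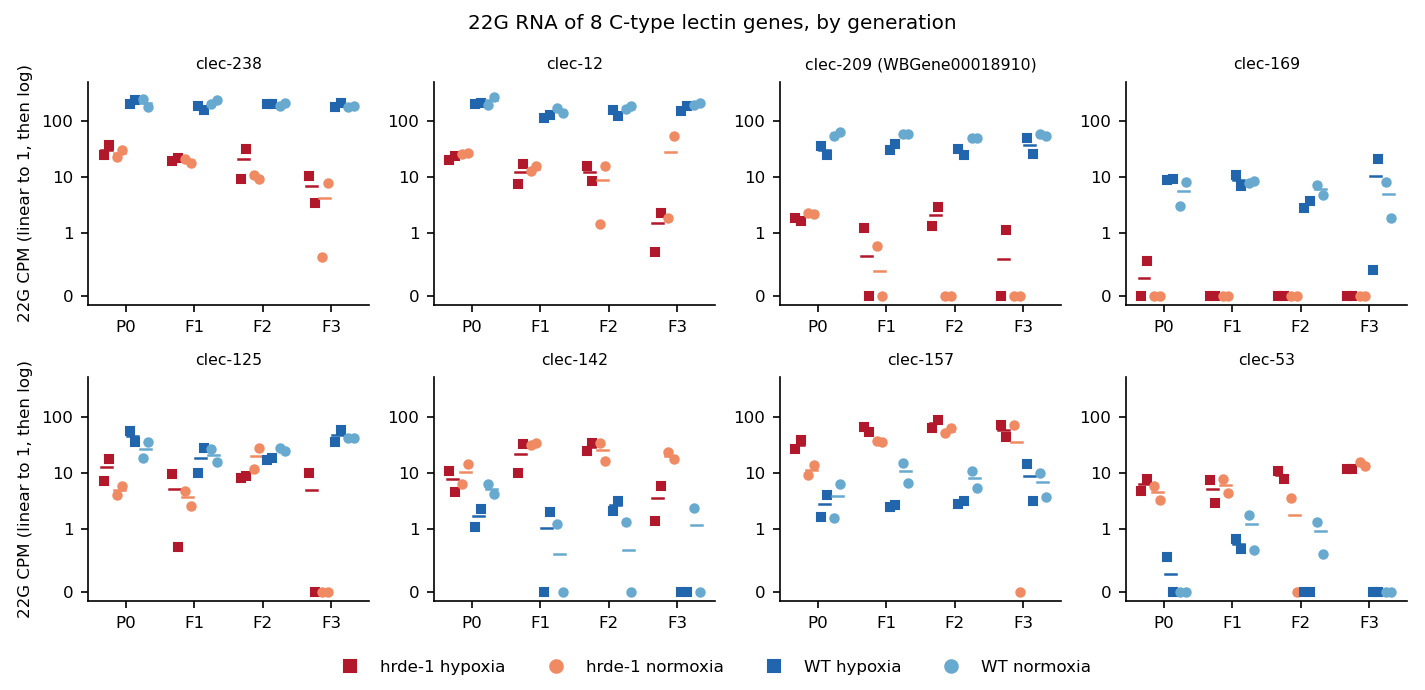
22G CPM of 8 C-type lectin genes in every library by generation, on an axis that is linear to 1 CPM and logarithmic above it, with bars at the mean of the 2 libraries. For clec-238 the hrde-1 libraries lie between 0.623 and 37.1 CPM and the WT libraries between 159 and 243 CPM, while clec-142, clec-157 and clec-53 had higher medians in hrde-1 worms.

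Not all C-type lectin genes with a high level per kb were called between genotypes. Of those given here, clec-140 and clec-90 overlap other genes, so their reads may belong to hmg-11, T05A7.3 or glo-2. clec-140 had 155 to 296 CPM (median 225) in hrde-1 worms and 155 to 219 CPM (median 185) in WT under hypoxia, and 96.6 to 230 CPM (median 170) in hrde-1 worms and 148 to 223 CPM (median 211) in WT under normoxia. It was not called in either comparison. clec-87, clec-90 and clec-119 were not called between genotypes under either label either. For clec-90 the medians were 53.7 CPM in hrde-1 worms and 50.2 CPM in WT under normoxia. A p above the threshold does not show that these genes carried equal 22G RNA in both genotypes.

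The deposited F2 WT normoxia columns and the scaling bear on the normoxia comparison between genotypes. Without those columns 9 of 31 genes were called, 2 higher and 7 lower, and all 9 were among the 15. They were clec-12, clec-53, clec-125, clec-142, clec-150, clec-169, clec-238 and both clec-209 copies. With the remainder in place of the columns 13 were called, 3 higher and 10 lower. With the total of the 4 classes as library size, which moved the median over all genes to 0.18 on the log2 scale (-0.18 as reported), 9 were called, 3 higher and 6 lower. The fold changes of clec-238, clec-12, both clec-209 copies, clec-169, clec-125, clec-142 and clec-53 passed in each of these 3 fits.

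**Figure D4:**
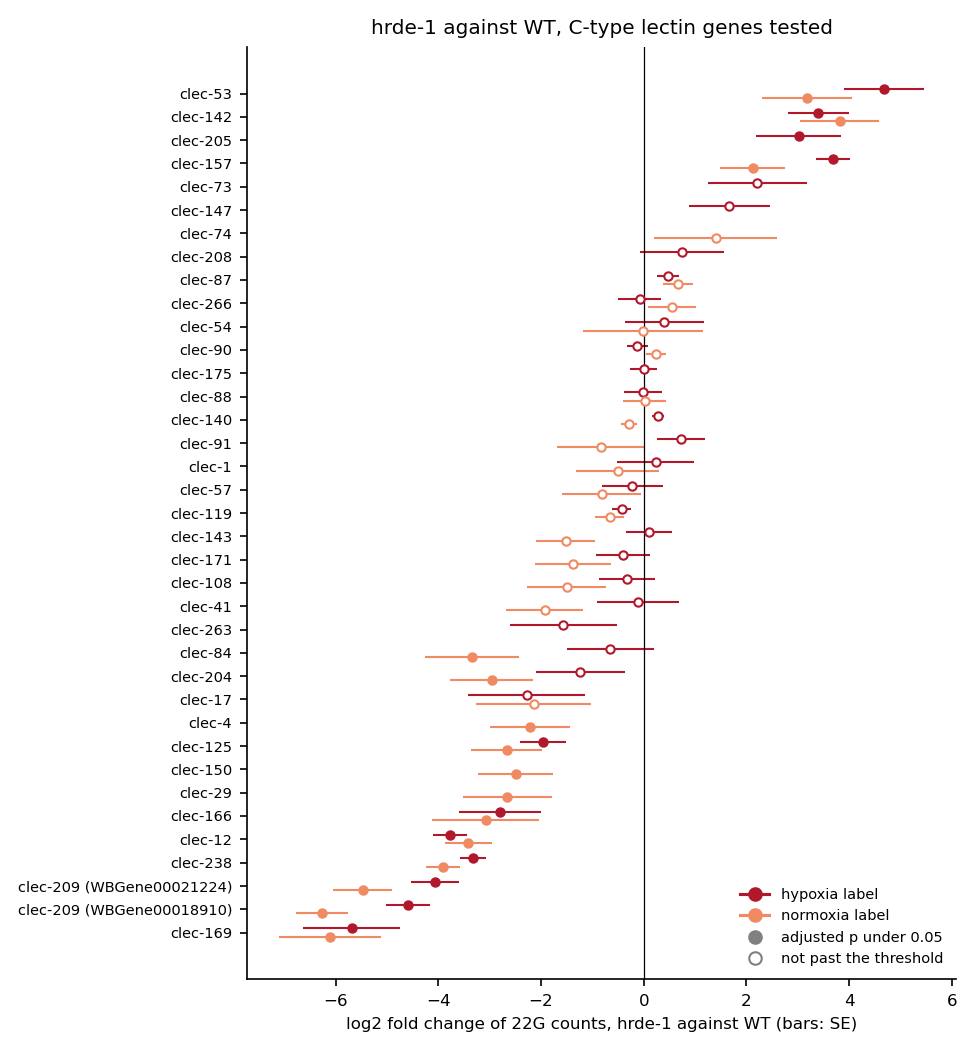
Log2 fold change of 22G counts in hrde-1 worms against WT, with SE bars, for each C-type lectin gene tested under the hypoxia (red) or normoxia (orange) label. Filled points have an edgeR adjusted p under 0.05, and they run from clec-209 copy WBGene00018910 (-6.27 under normoxia) to clec-53 (4.68 under hypoxia). The fitted value of clec-169 under normoxia comes from a group with no count and is no measure of size.

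Within a generation, the hypoxia label was compared with the normoxia label in each genotype, to ask whether exposure or descent from exposed worms changes this 22G RNA. At P0, F1 and F2, and at F3 in WT, none of the 40 C-type lectin genes that passed the filter was called by edgeR. All of these 40 genes were tested in each of the 8 single-generation comparisons. The background called was 0.731% in P0 hrde-1 worms, 0.711% in P0 WT, 0.346% in F1 hrde-1 worms, 0.168% in F1 WT, 0.0% in F2 hrde-1 worms, 0.0% in F2 WT and 0.346% in F3 WT. At an unadjusted p under 0.05 the genes numbered 1 in P0 hrde-1 worms, 2 in P0 WT, 1 in F1 hrde-1 worms, 2 in F1 WT, 4 in F2 hrde-1 worms, 0 in F2 WT and 8 in F3 WT. Over all genes the share at an unadjusted p under 0.05 was 6.08% in P0 hrde-1 worms, 6.72% in P0 WT, 7.10% in F1 hrde-1 worms, 3.64% in F1 WT, 8.40% in F2 hrde-1 worms, 1.62% in F2 WT and 12.8% in F3 WT. DESeq2 called 1 gene in F2 hrde-1 worms, 2 in F3 WT and 0 in the other 5 comparisons.

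The gene with the lowest p in P0 WT was clec-166, with 2.22 and 5.15 CPM under hypoxia and 43.6 and 31.2 CPM under normoxia. Its log2 fold change was -3.32 ± 1.02 (2 libraries each, edgeR adjusted p = 0.244). The groups did not overlap, yet the difference did not pass. In P0 hrde-1 worms the gene with the lowest p was clec-79, with 12 counts under hypoxia and 0 under normoxia (edgeR adjusted p = 0.822). In F1 WT it was clec-41, which takes part in the defence against Bacillus thuringiensis, with 1 count under hypoxia and 17 under normoxia (edgeR adjusted p = 1). In F1 hrde-1 worms it was clec-208, with 8 counts under hypoxia and 0 under normoxia (edgeR adjusted p = 0.649).

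In F2 hrde-1 worms the gene with the lowest p was clec-140, with 253 and 296 CPM under hypoxia and 193 and 147 CPM under normoxia, a log2 fold change of 0.68 ± 0.21 (2 libraries each, edgeR adjusted p = 0.324). In F2 WT it was clec-53, with 0 counts under hypoxia and 3 under normoxia (edgeR adjusted p = 1). In F3 WT it was clec-147, with 0 counts under hypoxia and 18 under normoxia (edgeR adjusted p = 0.115). The response at P0 was also compared between genotypes. No C-type lectin gene differed, against a background of 0.0593%, and the lowest p was at clec-166 (edgeR adjusted p = 1). At an unadjusted p under 0.05 there were 0, against 2.81% of all genes. DESeq2 called 0, against 17 of 22824 genes.

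Pooled over F1 to F3, WT under the hypoxia label had less 22G RNA than WT under normoxia at 4 of the 25 C-type lectin genes tested, and at none had it more. The background was 4.64% called, 3.26% lower and 1.38% higher. The genes were clec-119, clec-143 and both clec-209 copies. clec-119 had 69.5 and 54.1 CPM at F1, 39.2 and 53.9 at F2, and 26.8 and 34.2 at F3 under hypoxia. Under normoxia it had 112 and 101 CPM at F1, 77.3 and 86.1 at F2, and 73.2 and 108 at F3. The 6 hypoxia libraries were all below the 6 normoxia libraries, and the log2 fold change was -1.06 ± 0.17 (edgeR adjusted p = 0.00208). clec-143 had 2.49 to 10.9 CPM (median 5.36) under hypoxia and 12.5 to 31.2 CPM (median 18) under normoxia, a log2 fold change of -1.70 ± 0.36 (edgeR adjusted p = 0.0147). The next gene beside it, ZK666.1, changed by -0.14 ± 0.19, and tnc-2, which overlaps clec-143, had 8 counts in all libraries.

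The copies of clec-209 changed by -0.72 ± 0.17 at WBGene00018910 (edgeR adjusted p = 0.0227) and by -0.88 ± 0.15 at WBGene00021224 (edgeR adjusted p = 0.00319). The first copy passed in 6 of 12 fits with 1 library left out, and clec-143 had an adjusted p of 0.0537 without the second F3 WT normoxia library. Without the F2 WT normoxia columns, which repeat the F1 and F3 normoxia libraries, 1 gene passed, clec-119 (log2 fold change -1.18, edgeR adjusted p = 0.0131). The other log2 fold changes were then -1.75 at clec-143, -0.66 at WBGene00018910 and -0.83 at WBGene00021224. With the remainder in their place none passed, with an adjusted p of 0.228 at clec-119. The remainder held clec-119 at 37.7 and 59.1 counts per 1e6 of its total. Over all genes, 394 were called as deposited, 151 without the columns and 1 with the remainder. At P0 clec-119 had 93.6 and 104 CPM under hypoxia and 111 and 121 CPM under normoxia in WT.

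In hrde-1 worms none of 26 genes was called by edgeR over F1 to F3, against a background of 0.176%. At an unadjusted p under 0.05 there were 3, against 7.78% of all genes. DESeq2 called 0, against 138 of 17622 genes. The lowest p was at clec-208, with 36 counts under hypoxia and 0 under normoxia (edgeR adjusted p = 0.301). At F3 alone 15 of 40 genes were called in hrde-1 worms, 11 higher and 4 lower under hypoxia, with a background of 21.5% called, 15.2% higher and 6.28% lower. With only the 4 F3 hrde-1 libraries in the fit, none of the 14 genes that then passed the filter was called. Over all genes 0 of 6954 were called in that fit. Of the 15 called genes 7 were among those 14. Their fold changes stayed close, as at clec-140 (0.99 with the 4 libraries and 0.98 with all) and clec-166 (-7.61 and -7.63). Both fits take these fold changes from the same 4 libraries, so this closeness is no independent support. Of the 40 genes, 19 had no count in either F3 hrde-1 normoxia library, against 7 in F3 hrde-1 hypoxia, 6 in F3 WT hypoxia and 1 in F3 WT normoxia. Over all 46932 genes, 7428 and 6356 had a count in the F3 hrde-1 normoxia libraries, the lowest of the 32 libraries. The F3 hrde-1 hypoxia libraries had 9534 and 8603, F3 WT hypoxia 9019 and 10685, and F3 WT normoxia 12633 and 11983. The part of this low detection in the calls was not tested.

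Among the genes higher under hypoxia at F3, clec-91 had 36.6 and 10.5 CPM under hypoxia and 0 CPM in both normoxia libraries, at least 30.0-fold higher against a floor of 3 counts over the group (edgeR adjusted p = 0.00179). clec-91 overlaps ZK858.8 by 15 bases, and 22G RNA of ZK858.8 was lower under hypoxia at F3 by a log2 fold change of -1.33 ± 0.35 (edgeR adjusted p = 0.00969). The same kind of bound was 14.3 for clec-73, 12.3 for clec-208, 11.3 for clec-79, 9.34 for clec-123, 6.88 for clec-125 and 6.39 each for clec-175 and clec-205. clec-147 had 33 counts under hypoxia and 1 under normoxia, and clec-143 had 10 and 1. With each of the 4 libraries left out in turn, only clec-91, clec-140, clec-166 and clec-266 of the 15 passed in all 4 fits, and clec-79 and clec-175 passed in none.

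clec-140 had the most counts in this set, with 207 and 210 CPM under hypoxia and 115 and 96.6 CPM under normoxia in F3 hrde-1 worms. Its log2 fold change was 0.98 ± 0.21 (2 libraries each, edgeR adjusted p = 0.00222). The genes lower under hypoxia were clec-166, clec-12, clec-266 and clec-90. clec-166 had no count under hypoxia and 9.34 and 24.4 CPM under normoxia, at least 13.1-fold lower (edgeR adjusted p = 0.00379). clec-266 had 2.81 and 2.33 CPM under hypoxia and 23.7 and 50.6 CPM under normoxia (log2 fold change -3.79 ± 0.91, edgeR adjusted p = 0.00523). clec-90 changed by -1.40 ± 0.38 (edgeR adjusted p = 0.0124). clec-12 had 0.703 and 2.33 CPM under hypoxia and 1.87 and 54.6 CPM under normoxia, and without the library at 54.6 CPM its adjusted p was 0.874, and without the first F3 hrde-1 hypoxia library it was 0.107. clec-90 had 21.8 and 27.9 CPM under hypoxia and 83.5 and 46.6 CPM under normoxia.

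**Figure D5:**
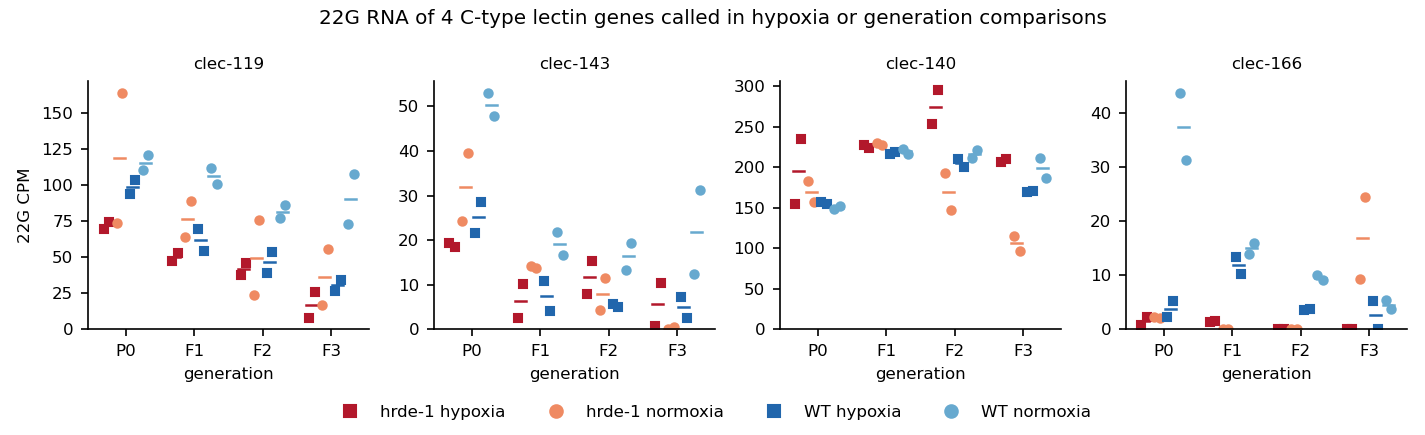
22G CPM of clec-119, clec-143, clec-140 and clec-166 in every library by generation, on linear axes from 0, with bars at the mean of the 2 libraries. In WT clec-119 lies at 26.8 to 69.5 CPM under hypoxia and 73.2 to 112 CPM under normoxia at F1 to F3, and in F3 hrde-1 worms clec-140 lies at 207 and 210 CPM under hypoxia and 115 and 96.6 CPM under normoxia. The F2 WT normoxia columns contain the F1 and F3 values and are not independent libraries.

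The hypoxia response over F1 to F3 was then compared between genotypes, as hrde-1 minus WT. Of 40 genes 5 differed, all with the higher response in hrde-1 worms, with a background of 8.58% called, 7.27% with the higher response in hrde-1 worms. They were clec-208 (6.47 ± 1.59), clec-73 (5.55 ± 1.48), clec-147 (3.67 ± 1.08), clec-143 (2.80 ± 0.76) and clec-140 (0.65 ± 0.17), as differences of log2 fold changes with SE. With 1 of the 24 libraries left out at a time clec-147 passed in 9 of 24 fits, clec-143 in 19 and clec-140 in 23, while clec-208 and clec-73 passed in 22. The fitted values of clec-208, clec-73 and clec-147 come from groups with no count and are no measure of size. For clec-140 the log2 fold change under hypoxia was -0.02 ± 0.21 at F1, 0.68 ± 0.21 at F2 and 0.98 ± 0.21 at F3 in hrde-1 worms, and -0.01 ± 0.21, -0.08 ± 0.21 and -0.23 ± 0.21 in WT (edgeR adjusted p of the difference = 0.0178). Without the second F2 hrde-1 hypoxia library that p was 0.0559, and with the library size of the 4 classes it was 0.457. With the remainder in place of the F2 WT normoxia columns 3 of the 5 passed, clec-208, clec-73 and clec-140.

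Without hypoxia, F3 was compared with F1 in each genotype. In hrde-1 worms 6 of 40 genes were called, 1 higher and 5 lower at F3, with a background of 17.7% called, 1.63% higher and 16.1% lower. clec-140 had 115 and 96.6 CPM at F3 and 230 and 227 CPM at F1 (log2 fold change -1.11 ± 0.21, edgeR adjusted p = 7.81e-04). clec-238 had 0.623 and 7.96 CPM at F3 and 21.3 and 18.1 CPM at F1 (-2.15 ± 0.55, edgeR adjusted p = 0.00880), and its adjusted p was 0.0589 without the first F1 library. clec-143 had 0 and 0.568 CPM at F3 and 14.2 and 13.8 CPM at F1 (edgeR adjusted p = 0.00342). clec-91 and clec-125 had no count at F3 and were at least 8.79-fold and 4.17-fold lower than at F1, and clec-125 lost its call whichever of the 4 libraries was left out. clec-166 had 9.34 and 24.4 CPM at F3 and no count at F1, at least 13.9-fold higher (edgeR adjusted p = 0.00342). Its neighbours F38A1.11 and F38A1.6 had 7 and 1 counts in all libraries.

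With only the 4 compared libraries no C-type lectin gene was called between F3 and F1 in hrde-1 worms. Over all genes 0 of 6759 were called in that fit. This comparison and the F3 comparison of oxygen labels share the F3 hrde-1 normoxia libraries, so clec-91, clec-125, clec-140, clec-143 and clec-166 in both lists are not independent observations. In WT under normoxia no gene was called by edgeR between F3 and F1, against a background of 0.0%. At an unadjusted p under 0.05 there was 1, against 2.88% of all genes. DESeq2 called 0, against 3 of 22824 genes. The lowest p in WT was at clec-53, with 0 counts at F3 and 4 at F1 (edgeR adjusted p = 1).

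Like most of the family, the C-type lectin genes best known from infection work carried little 22G RNA. Of a list of 19 such genes, 15 had a count, 4 passed the filter of the fit over all libraries, and 4 had none, among them clec-60, which responds to Staphylococcus aureus in C. elegans, and clec-85. In the whole family 73.3% of the 240 genes had a count, 40 passed that filter and the median level was 0.159 CPM per kb. Members of the list with a count reached at most 2.34 CPM per kb, at clec-29. The members with most counts were clec-41 (180 counts in all libraries), clec-4 (144), clec-29 (127) and clec-66 (107). Between genotypes 2 of the 4 members tested under normoxia were called, clec-29 and clec-4, both lower in hrde-1 worms as given above, and 0 of 2 under hypoxia. Over all genes 28.0% were called under normoxia, 16.3% lower. Without the F2 WT normoxia columns neither passed (edgeR adjusted p = 0.142 for clec-29 and 0.0608 for clec-4). In the 8 single-generation hypoxia comparisons none of 4 members tested was called by edgeR.

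Other immune genes were counted for comparison. Of 96 other effector genes 67 had a count, and of the 5 tested between genotypes lec-1, a galectin, was higher in hrde-1 worms under both labels. Its log2 fold changes were 1.21 ± 0.23 under normoxia and 1.07 ± 0.14 under hypoxia, and spp-28, a saposin-like gene, was higher by 3.01 ± 1.01 under hypoxia. Of 20 genes that regulate immunity 19 had a count. Under normoxia 5 of 13 tested were called, 1 higher and 4 lower in hrde-1 worms, and under hypoxia 5 of 14, also 1 higher and 4 lower. Over all genes tested 28.0% were called under normoxia and 38.1% under hypoxia. zip-2, a bZIP transcription factor of the pathogen response, was lower, with log2 fold changes of -2.89 ± 0.19 under normoxia and -2.73 ± 0.15 under hypoxia. hlh-30, the TFEB homologue, was lower with -2.60 ± 0.36 under normoxia and -1.96 ± 0.30 under hypoxia, and daf-16, the FOXO factor of insulin signalling, with -0.79 ± 0.20 and -0.85 ± 0.13. sma-3, a SMAD of the TGF-beta pathway, was higher by 1.35 ± 0.20 and 2.15 ± 0.24. No call of these lists is read as a change of the pathway, since 22G RNA does not measure the genes' expression.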

How the data were processed

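Total RNA of whole worms (500 ng) was treated with RppH, which makes ends with a 5′ triphosphate ligatable, at 37 °C for 30 min before small RNA libraries were made, per the labels' protocols. The deposited 22G table holds counts per gene, which the authors made with FastQC, cutadapt 2.5, featureCounts and edgeR per the submitters' processing notes. The aligner, genome build and strand setting are not given in the sources used here. The deposited F2 WT normoxia values are partly fractional (24.4% and 23.6% of genes), were treated as estimated counts and rounded. Entries that name no gene (no feature, 16.4% to 25.5%, ambiguous, 3.09% to 3.60%, and not aligned, 7.24% to 14.9%) stayed out of library sizes. Of the 46932 gene IDs, 46919 matched the Ensembl release 115 annotation of WBcel235, from which names and coordinates come. No sequence table was used here, so none is printed.

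Counts were tested with edgeR 4.0.16 in R 4.3.3 (robust glmQLFit and glmQLFTest, TMM scaling, filterByExpr on the groups, minimum count 10, p-values adjusted by Benjamini-Hochberg over every 22G gene tested, threshold 0.05). Single-generation comparisons, F3 against F1 and the genotype differences of the hypoxia response came from a fit of 16 group means over 32 libraries. Comparisons between genotypes (8 libraries against 8) and over F1 to F3 (6 against 6) used their own libraries with the generation as a term. SEs were taken from the log2 fold change and the F statistic. Intervals are exact and conditional on the summed counts (95%), and folds against 0 use a floor of 3 counts over the group.

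The C-type lectin genes and the lists of immune genes were chosen with earlier results of these data known. Named genes were the 10 with the highest level per kb, every called gene of a comparison (at most 12 in each direction), the gene with the lowest p where none was called, members of the infection list by count, the neighbours of the gene with the largest change, and the largest genomic group. No label gives separate cultures for replicates, so p-values measure only how these samples spread, and that spread may be technical. The replicate numbers gave no sign of pairing the samples. Deviations of same-numbered hypoxia and normoxia libraries correlated at -0.0398 to 0.0382 over 7336 genes, which cannot exclude shared cultures or batches. The correlations of F2 with F1 and F3 WT normoxia (0.475 and 0.584) follow from the shared columns described in the results. Alternatives were RLE scaling, a 4-class library size, other count filters, DESeq2 1.42.0, a replicate block, fits on fewer libraries and fits with 1 library left out (32 and 56). The scripts were tested on simulated counts.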

Additional observations from a re-analysis of the deposited data

Results flagged for a closer look

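In sets of 8 libraries of 1 genotype and 1 oxygen label, 12 single values lay far from the other 7 among 68 sets examined. The nominal rate of the rule by chance is about 1 in 20. Whether that rate holds for sparse counts was not tested. A set with counts in only 1 library is flagged however low the count, so 12 of 68 is not read as an excess. In hrde-1 worms under hypoxia these were clec-169 at 0.562 CPM and clec-84 at 12.4 CPM in the second P0 library, clec-29 at 1.44 CPM in the second F1 library and clec-209 (WBGene00021224) at 6.74 CPM in the second F2 library. The clec-169 value is a single count, and neither clec-169 nor clec-29 had a count in the other 7 libraries of its set.

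In hrde-1 worms under normoxia the second F3 library held clec-12 at 54.6 CPM, against a median of 15.8 CPM, and clec-166 at 24.4 CPM, against a median of 1.08 CPM. The first F3 library held clec-29 at 7.47 CPM, and the second F2 library held clec-125 at 27.5 CPM. In WT under hypoxia clec-157 was at 14.2 CPM in the first F3 library (median 2.98 CPM), clec-205 at 1.87 CPM in the second F3 library and clec-204 at 10.7 CPM in the second F2 library. In WT under normoxia clec-204 had 0 CPM in the first P0 library, against a median of 6.61 CPM.

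The hypoxia response over F1 to F3 differed between hrde-1 worms and WT at 5 of 40 genes by edgeR's interaction test (12.5%). Over all genes 868 of 10121 were called (8.58%). The differences of log2 fold changes were 6.47 at clec-208, 5.55 at clec-73, 3.67 at clec-147, 2.80 at clec-143 and 0.65 at clec-140. The values of clec-208, clec-73 and clec-147 come from groups with no count and are no measure of size. Without the first F2 hrde-1 hypoxia library the adjusted p was 1 for both clec-208 and clec-73, and for clec-208 it was also 1 without the first F1 hrde-1 hypoxia library.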

How the results depend on the processing

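None of the called fold changes reversed under any alternative that could be fitted. Counts of called C-type lectin genes that moved by more than 1.5 times were as follows, with the calls over all genes of the same fit in parentheses. For hrde-1 against WT under normoxia, 15 of 31 genes tested were called as reported (2598 of 9279). This became 9 of 31 with the 4-class library size (1295 of 9279) and 8 of 12 with a minimum count of 50 (2148 of 5246). Without the P0 libraries it was 9 of 26 (2158 of 8882), and without the F2 WT normoxia libraries 9 of 31 (1894 of 9231). DESeq2 called 22 of 158 (3502 of 19894), a move within 1.5 times. Under hypoxia 11 of 33 (3508 of 9213) became 7 of 10 with a minimum count of 50 (2756 of 5172). With DESeq2 the count was 18 of 158, 9 higher and 9 lower (3914 of 20854). For hypoxia against normoxia at P0 in WT, 0 of 40 (72 of 10121) became 19 of 40, all higher, with the 4-class size (7496 of 10121). That size moved the median of all genes to 2.70 on the log2 scale. With only the compared libraries the count was 5 of 18 (780 of 7061). Without the F3 libraries 1 of 32 was called at P0 in each genotype (320 of 9302 in hrde-1 worms and 207 of 9302 in WT). With only the compared libraries 1 of 18 was called in P0 hrde-1 worms (229 of 7736) and 3 of 19 in F1 WT (392 of 7437). DESeq2 called 1 of 176 in F2 hrde-1 worms (68 of 22824) and 2 of 176 in F3 WT (277 of 22824). With no count filter 1 of 176 was called in F3 WT (229 of 22824). In F3 hrde-1 worms 15 of 40 (2179 of 10121) became 6 of 12 with a minimum count of 50 (1164 of 5698). With only the compared libraries the count was 0 of 14 (0 of 6954). Over F1 to F3 in WT 4 of 25 (394 of 8485) became 2 of 25 with the 4-class size (329 of 8485). The count was 1 of 25 without the F2 WT normoxia libraries (151 of 8421) and 0 of 26 with the remainder (1 of 8572). The genotype difference of the response at P0 gave 5 of 40 with the 4-class size (3919 of 10121), against 0 of 40 (6 of 10121). Over F1 to F3 this difference gave 5 of 40 as reported (868 of 10121). It gave 2 of 40 with the 4-class size (369 of 10121) and 2 of 12 with a minimum count of 50 (524 of 5698). With only the compared libraries it gave 3 of 34 (511 of 9711), and with the remainder 3 of 40 (583 of 10142). With DESeq2 it gave 9 of 176 (1227 of 22824). F3 against F1 in hrde-1 normoxia gave 0 of 13 with only the compared libraries (0 of 6759), against 6 of 40 (1795 of 10121). The causes of these moves were not tested. The F2 WT normoxia columns repeat other libraries, and leaving them out also makes the fit smaller.

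With 1 library left out at a time the counts ranged from 13 to 18 for hrde-1 against WT under normoxia, 11 to 15 under hypoxia, 3 to 5 over F1 to F3 in WT, 10 to 14 at F3 in hrde-1 worms, 3 to 9 for F3 against F1 in hrde-1 normoxia and 4 to 12 for the genotype difference over F1 to F3. The 12 came without the second F3 WT hypoxia or the first F3 hrde-1 normoxia library. In the other 10 comparisons the lowest and highest counts were 0. The lone library of such a group is assumed to vary like the others. The calls over all genes in these fits are not given here, so the ranges have no background beside them. With the replicate number as a block, 16 of 31 genes were called between genotypes under normoxia (2513 of 9279 over all genes). Under hypoxia 11 of 33 were called (3448 of 9213). The counts were 4 of 25 over F1 to F3 in WT (399 of 8485) and 13 of 40 at F3 in hrde-1 worms (2066 of 10121). F3 against F1 in hrde-1 normoxia gave 6 of 40 (1727 of 10121) and the genotype difference over F1 to F3 gave 5 of 40 (831 of 10121), with 0 elsewhere. Same-numbered libraries gave no sign of pairing beyond the shared F2 WT normoxia columns, which does not exclude it. A fit without the F2 WT normoxia libraries could not be made for the F2 WT comparison or for the genotype difference over F1 to F3. In the fit over 32 libraries 200 of the 240 genes had too few counts to be tested.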
